A study of Mus musculus with 4 samples.

Results

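Voltage-gated sodium and calcium channels carry the inward currents of the cardiac action potential, and 7 of their subunit genes were described here: the sodium channel beta subunits Scn3b and Scn4b, the pore-forming calcium channel subunits Cacna1c, Cacna1g and Cacna1h, the auxiliary beta subunit Cacnb2 and the auxiliary alpha2delta subunit Cacna2d1. They were taken by gene symbol from a table of 56691 genes, and all 7 were found once. They were chosen by their measured counts and FPKM values in the comparison of knockdown with control cells, so their differences are given as a description, with no p-value, and counts of called members support nothing. All 4 libraries came from primary cardiac fibroblasts of wild-type mice, isolated from the heart between postnatal days 1 and 3, given the cardiac transcription factor mix MGT (Mef2c, Gata4 and Tbx5) and collected at day 7. One group also carried a non-targeting short hairpin RNA (MGT+shNT, the control cells) and the other a hairpin against Scd1, the stearoyl-CoA desaturase gene (MGT+shScd1, the knockdown cells), with 2 libraries in each group. Both groups thus carried MGT, and fibroblasts without the factors were not analysed here. No label ties a replicate to a culture or an animal of its own, so the spread between replicates may be technical.

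A voltage-gated channel opens its pore when the membrane depolarises. The alpha subunit of a sodium channel, or the alpha1 subunit of a calcium channel, forms the pore and the voltage sensors, and the smaller subunits set how many channels reach the membrane and how they open and close. In working heart muscle the sodium current drives the upstroke of the action potential, the L-type calcium current triggers contraction, and T-type calcium channels, which open at more negative voltages, are known from pacemaker tissue and the developing heart. The comparison asks how lowering Scd1 bears on reprogramming by MGT, seen here in the channel genes. No label gives the knockdown libraries different hairpins against Scd1. Effects of a hairpin on other genes thus cannot be told apart from those of lowering Scd1.

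Total counts ranged from 15135227 to 20894972 per library. Scd1 stood at 84.4 and 63.5 CPM in control cells (reads of a gene relative to the TMM-adjusted size of its library) against 6.64 and 8.04 CPM in knockdown cells, so the targeted transcript was lower in both libraries labelled with its hairpin. MGT+shNT replicate 2 stood apart, with 3.32% of its counts on the ribosomal RNA gene Rn18s-rs5 against 0.129% to 0.199% in the other 3 libraries. Each of the 8 fibroblast markers had counts in every library. They summed to 15590 and 14550 CPM in MGT+shNT and 9357 and 9531 CPM in MGT+shScd1, mostly from Col1a1, Col1a2 and Col3a1. Of these 8, 6 fell, and Pdgfra and Dcn were not called (edgeR, adjusted p below 0.05). Over all 16234 genes tested 29.3% were called, 13.1% higher and 16.3% lower, and the marker counts here stand beside that share. The 8 cardiomyocyte markers summed to 4272 and 4732 CPM and to 4083 and 4056 CPM, a sum carried mostly by Tnnt2. Of these markers 3 rose (Myh6, log2 fold change 1.31, Tnni3, 1.35, and Actn2, 1.52), 3 fell (Tnnt2, -0.36, Myl7, -0.31, and Nppa, -1.35) and 2 were not called (edgeR, adjusted p below 0.05). The 7 macrophage markers were all present and summed to 689.6 and 631.5 CPM against 160.4 and 157.2 CPM, a sum carried mostly by Lyz2. Of these 7, 5 fell, while Csf1r and Fcgr1 were not called and overlapped between the groups. The 6 endothelial markers held 22.4 to 28.9 CPM in every library. The 6 smooth muscle markers summed to 3310 and 3873 CPM against 4286 and 4063 CPM, a sum carried mostly by Acta2 and Des. Cnn1 (0.78) and Des (0.68) rose, Myh11 (-0.44) and Smtn (-0.35) fell, and Acta2 and Tagln were not called. Skeletal muscle markers summed to 17.7 and 21.7 CPM against 29.1 and 31.0 CPM, with Myod1 at 0 counts in all 4 libraries and Myog at 0, 0, 3 and 7. Of 5 skeletal muscle markers tested, Myh3 (4.29), Mylpf (2.37) and Tnnt1 (2.36) rose, and Tnnt3 and Acta1 were not called. Ckm, which was not tested, went the other way, with 4, 4, 0 and 0 counts. The 8 neuronal markers summed to 47.5 and 38.7 CPM and to 58.8 and 56.4 CPM, nearly all of it Tubb3. Both neuronal markers tested rose, Tubb3 by 0.39 and Syt1, from 3 and 3 counts to 19 and 17, by 2.37. Elavl4 had 3, 0, 10 and 11 counts. Elavl3 (5, 3, 2 and 3 counts) and Stmn2 (4, 3, 1 and 2 counts) lay lower in CPM in both knockdown libraries. Snap25, Th and Rbfox3 had at most 0.156 CPM in any library. The 6 Schwann cell markers summed to 4.97 to 5.55 CPM. The part of these cell types in the channel levels was not tested, and in bulk RNA fewer cells of a type and less RNA per cell cannot be told apart.

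Within the 7 genes, Cacna1g and Cacna2d1 were clearly lower in MGT+shScd1 cells, Cacna1c was slightly lower, and Scn3b was somewhat higher. Cacna1h was higher in mean and Cacnb2 lower in mean on low counts, and Scn4b differed more between the control libraries than between the group means. By edgeR's quasi-likelihood test, 1 member was called higher and 3 lower at an adjusted p below 0.05, beside 29.3% of all 16234 genes tested (13.1% higher and 16.3% lower). In 6 of the 7 genes the libraries of the 2 groups did not overlap, beside 64.3% of all genes tested. Because these values chose the members, nothing is read from either count.

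**Figure D1:**
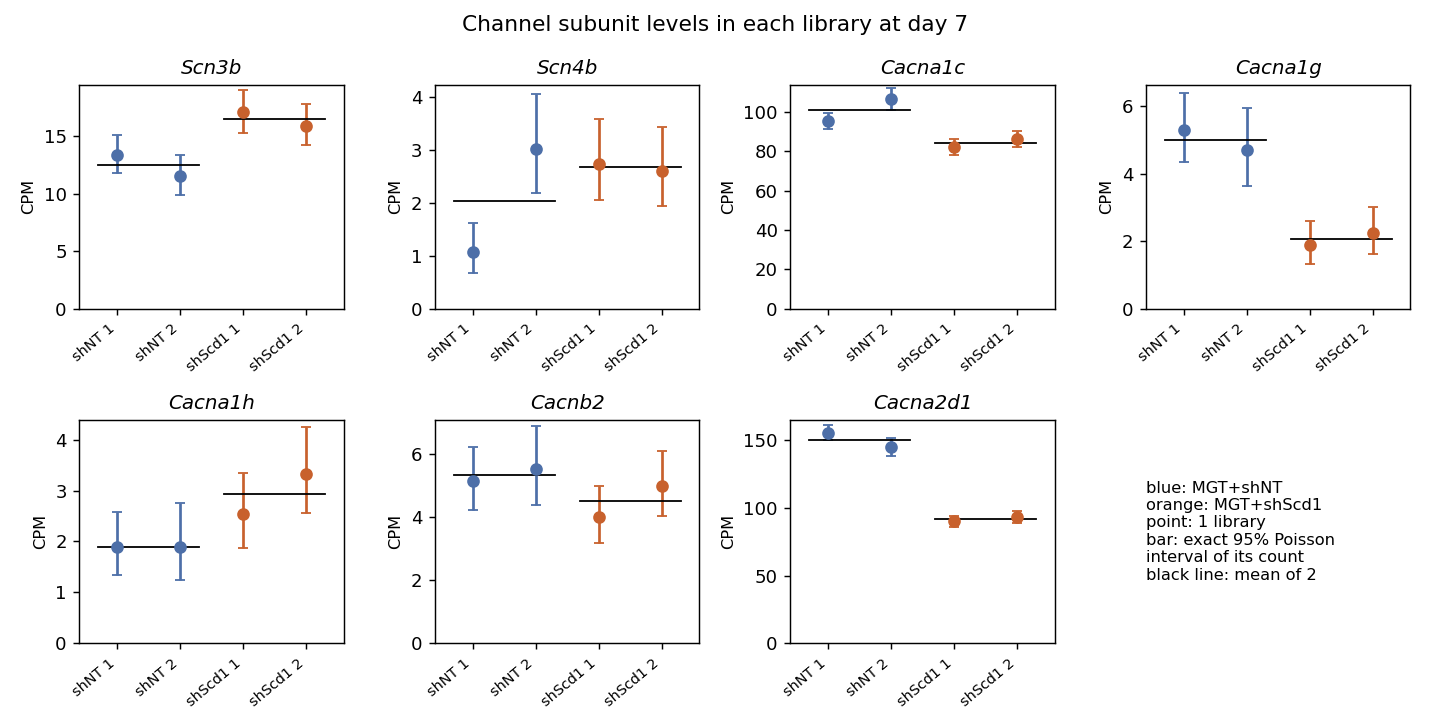
CPM (y axis, from 0) of each of the 7 channel genes in the 4 libraries (x axis), with points for single libraries, bars for the exact 95% Poisson interval of the count, which covers counting error only, and black lines for group means. Cacna2d1 and Cacna1g sit lower in both MGT+shScd1 libraries, while the Scn4b point of MGT+shNT replicate 1 lies below the other 3.

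The members were ordered by FPKM, which divides counts by exonic length and library total. The exonic length is a single value per gene, whatever transcripts the cells made. Orders, shares and ratios between genes are therefore approximate, here and below. Cacna2d1 was the most abundant member in MGT+shNT at 11.7 ± 0.955 FPKM (SD, n = 2, as for all levels below), followed by Cacna1c at 4.45 ± 0.205 FPKM and Scn3b at 2.21 ± 0.297 FPKM. Cacna1g (0.475 ± 0.0495 FPKM), Scn4b (0.39 ± 0.255 FPKM) and Cacnb2 (0.385 ± 0.00707 FPKM) came next. Scn4b differed from neither of its neighbours in that order beyond its own spread. Cacna1h was the least abundant, at 0.185 ± 0.00707 FPKM. In MGT+shScd1 the first 3 places were the same, with Cacna2d1 at 7.60 ± 0.17 FPKM, Cacna1c at 3.98 ± 0.12 FPKM and Scn3b at 3.12 ± 0.17 FPKM. Cacna1g, in the fourth place in control cells by its mean, was the lowest here (0.21 ± 0.0283 FPKM). Cacnb2 (0.35 ± 0.0566 FPKM) and Cacna1h (0.31 ± 0.0566 FPKM) did not differ beyond their spread there, and Scn4b stood above them at 0.555 ± 0.0212 FPKM.

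Cacna1c (ENSMUSG00000051331, minus strand of chromosome 6, 118587240 to 119196418 in GRCm38) encodes the pore of Cav1.2, the main L-type calcium channel of ventricular muscle. Its level was 95.3 and 106 CPM in control cells (1966 and 1519 counts) against 82.3 and 86.0 CPM in knockdown cells (1624 and 1657 counts). Both MGT+shScd1 values lay below both control values, by a small margin. The group means were 101 ± 7.75 and 84.1 ± 2.64 CPM, with a log2 fold change of -0.26 (SE 0.07). Dcp1b overlaps the gene on the opposite strand with 134 to 195 counts per library, and the strand setting of the counting is not given in the sources used here. A close relative, Cacna1d, which encodes the L-type pore of sinoatrial and atrial cells, is not a member. It fell from 7.75 ± 0.612 to 3.05 ± 0.306 CPM (log2 fold change -1.34, SE 0.20, edgeR adjusted p = 0.000227, lower in 2 of 2 libraries). Per base of exon, Cacna1c exceeded Cacna1d by 9.04 and 9.02 times in control cells and by 20.1 and 18.3 times in knockdown cells.

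The T-type genes differed in opposite directions. Cacna1g (ENSMUSG00000020866, minus strand of chromosome 11, 94408391 to 94474198) encodes the pore of Cav3.1, the T-type channel prominent in the adult sinoatrial node. Control cells gave 109 and 67 counts, and knockdown cells gave 37 and 43. These corresponded to 5.28 and 4.69 CPM against 1.87 and 2.23 CPM, and the higher knockdown library lay well below the lower control library. The group means were 4.99 ± 0.422 and 2.05 ± 0.253 CPM, a 2.43-fold lower level (log2 fold change -1.28, SE 0.25). Cacna1h (ENSMUSG00000024112, minus strand of chromosome 17, 25374285 to 25433783) encodes Cav3.2, the T-type pore that predominates in fetal heart muscle. Control cells gave 39 and 27 counts against 50 and 64 in knockdown cells. In CPM these were 1.89 and 1.89 against 2.53 and 3.32, and the groups did not overlap. The Poisson intervals of the counts were 1.34 to 2.58 CPM in the first control library and 1.88 to 3.34 CPM in the first MGT+shScd1 library. They overlapped for that pair. The log2 fold change was 0.63 (SE 0.30). The ratio of Cacna1g to Cacna1h per base of exon, taken within each library and so free of library scaling, was 2.69 and 2.39 in control cells but 0.713 and 0.647 in knockdown cells. The order of the T-type transcripts was therefore clear in both control libraries, where Cacna1g led. In the knockdown libraries Cacna1h was higher on 50 against 37 and 64 against 43 counts. The Poisson intervals of these counts overlapped in both libraries, which does not place the order within counting error. The order was the same in both and was not tested. The T-type gene outside the members, Cacna1i, had 0, 0, 0 and 3 counts.

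Cacna2d1 (ENSMUSG00000040118, plus strand of chromosome 5, 15934691 to 16374511) encodes alpha2delta-1, an extracellular subunit that brings L-type and related channels to the membrane and is the binding site of gabapentin. It had the most reads of the 7, with 3203 and 2067 counts in control cells against 1774 and 1791 in knockdown cells, or 155 and 145 CPM against 89.9 and 93.0 CPM. The groups were far apart and the libraries of each lay close together. The group means were 150 ± 7.54 and 91.4 ± 2.19 CPM, a 1.64-fold lower level (log2 fold change -0.72, SE 0.06). Cacnb2 (ENSMUSG00000057914, plus strand of chromosome 2, 14603088 to 14987908) encodes the beta subunit that binds the pore of Cav1.2 from inside the cell and is the main beta subunit of the adult heart. Control cells gave 106 and 79 counts, and knockdown cells 79 and 96. In CPM these were 5.14 and 5.53 against 4.002 and 4.98. The groups did not overlap, but the gap between the nearest libraries was smaller than the spread within MGT+shScd1, and the log2 fold change was -0.24 (SE 0.21).

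Start regions from RefSeq (GRCm38.p6) were found for 4 of the 7 members, Scn4b, Cacna1c, Cacna2d1 and Cacnb2, in 7 windows. The windows of the 2 most abundant members that lie outside every GENCODE M21 exon are printed because these genes were both lower, the first from chr5:15934441-15934690 (plus strand) and the second from an internal start of Cacna1c at chr6:118757975-118758224 (minus strand). Each shows the 250 bases before the start, 5′ to 3′, and capitals mark the GC box GGGCGG on either strand.
Cacna2d1: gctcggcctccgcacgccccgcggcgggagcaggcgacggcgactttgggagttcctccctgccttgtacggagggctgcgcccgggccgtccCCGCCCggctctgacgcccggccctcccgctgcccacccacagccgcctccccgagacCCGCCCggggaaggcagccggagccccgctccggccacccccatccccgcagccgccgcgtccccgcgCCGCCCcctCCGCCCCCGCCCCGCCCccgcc
Cacna1c: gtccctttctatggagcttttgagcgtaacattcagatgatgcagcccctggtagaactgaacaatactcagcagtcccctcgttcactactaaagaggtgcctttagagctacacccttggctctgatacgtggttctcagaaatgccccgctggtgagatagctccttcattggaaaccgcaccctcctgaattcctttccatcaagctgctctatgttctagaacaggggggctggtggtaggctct
The Cacna2d1 window held 6 GC boxes, some of them side by side or overlapping, and 82.4% G and C, whereas the printed Cacna1c window held 0 and 50.4%. The window of another Cacna1c start, not printed, also held 6 (82.8% G and C), and 1 Cacnb2 window held 1. Of 32851 such windows of all genes, 32.7% held at least 1 GC box, and the median content of G and C was 52.4%. Letters of motifs bound by the 3 reprogramming factors were searched on both strands: AGATAA for GATA factors (in 9.99% of all windows), AGGTGT for T-box factors (11.8%), and TATTTATA and TATTTTTA for MEF2 factors (1.56% and 2.45%). None of the 7 member windows held any of these 4 words, which says only that these letters are not in these windows.

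Scn3b (ENSMUSG00000049281, plus strand of chromosome 9, 40269217 to 40291618) encodes the beta3 subunit, a single-pass membrane protein that associates with sodium channel pores and alters their surface level and gating. Control cells gave 276 and 165 counts, and knockdown cells 338 and 306. In CPM these were 13.4 and 11.5 against 17.1 and 15.9, so both knockdown libraries were higher than both control libraries. The group means were 12.5 ± 1.3 and 16.5 ± 0.876 CPM, with a log2 fold change of 0.40 (SE 0.13). Scn4b (ENSMUSG00000046480, plus strand of chromosome 9, 45138395 to 45154152) encodes the beta4 subunit, which is linked covalently to the pore and favours resurgent sodium current in neurons. Control cells gave 22 and 43 counts and knockdown cells 54 and 50, or 1.07 and 3.01 CPM against 2.74 and 2.60 CPM. The groups overlapped, because MGT+shNT replicate 2, the library with the most ribosomal RNA, had the highest value of the 4. The Poisson intervals of the control libraries, 0.668 to 1.61 and 2.18 to 4.05 CPM, did not meet. With all libraries the log2 fold change was 0.45 (SE 0.40). It was 1.31 without MGT+shNT replicate 2 and -0.16 without MGT+shNT replicate 1, so no direction can be given.

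Other subunits of both families were listed by family, apart from the members, with earlier results of these data known. Of 31 other sodium and calcium channel subunits reported here, 15 passed the filter on low counts, with 4 that rose, 3 that fell and 8 that were not called at an adjusted p below 0.05 (edgeR, adjusted over all genes). That is 46.7% of those tested, beside 29.3% of all genes. Their median log2 fold change was 0.38, and that of all genes tested was 9.4e-05. The 16 not tested reached at most 0.77 CPM in any library. Without MGT+shScd1 replicate 1 the rises numbered 1, and without MGT+shScd1 replicate 2 they numbered 2.

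Among the sodium channel genes listed, a beta subunit and a pore subunit rose and another pore-type gene fell. Scn2b, the beta subunit gene next to Scn4b on chromosome 9, with 8.32 kb and 0 protein-coding genes between them, rose from 1.36 and 0.91 CPM to 6.08 and 4.93 CPM (log2 fold change 2.24, SE 0.29, adjusted p = 7.07e-05). Scn10a, which encodes a pore best known from sensory neurons, rose from 1.73 ± 0.323 to 3.69 ± 0.299 CPM (log2 fold change 1.11, adjusted p = 0.0109). This call was lost without MGT+shScd1 replicate 1 (adjusted p = 0.146) or replicate 2 (adjusted p = 0.0672). Its neighbour Scn11a, at 34.4 kb, did not pass (0.38, adjusted p = 0.578). Scn7a, a sodium-sensing relative, fell from 11.99 ± 1.42 to 7.75 ± 1 CPM (log2 fold change -0.64, adjusted p = 0.00688), a call lost without MGT+shScd1 replicate 1 (adjusted p = 0.116) and on log2(FPKM + 1) (adjusted p = 0.164). Scn2a, a pore of brain neurons (-0.10, adjusted p = 0.694), and Scn4a, the pore of skeletal muscle (1.20, adjusted p = 0.135), did not pass. Scn9a had 0 counts in all 4 libraries.

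Calcium channel genes outside the members moved in both directions. Cacna1a, the pore of the neuronal P/Q-type channel, was the most abundant alpha1 gene by FPKM and fell from 137 ± 3.7 to 92.7 ± 5.51 CPM (log2 fold change -0.56, SE 0.06, adjusted p = 2.67e-05). Cacng7, a gamma-type subunit known in the brain for AMPA receptor trafficking, rose from 8.73 ± 1.36 to 14.8 ± 1.56 CPM (log2 fold change 0.74, adjusted p = 0.00194), a call lost without MGT+shScd1 replicate 1 (adjusted p = 0.0582). Cacnb1, the beta subunit of skeletal muscle, rose from 11.2 and 10.6 CPM to 13.9 and 14.1 CPM (log2 fold change 0.36, adjusted p = 0.0474). That call lay at the threshold and was lost in 9 of 12 alternatives (adjusted p from 0.0518 to 0.21). Cacnb3 (-0.05, adjusted p = 0.607), Cacnb4 (-0.52, adjusted p = 0.0985), Cacna1s, the L-type pore of skeletal muscle (1.18, adjusted p = 0.0691), Cacna1e (0.79, adjusted p = 0.299) and Cacna1b (0.60, adjusted p = 0.531) did not pass. Cacnb4 passed without MGT+shNT replicate 1 (-0.75, adjusted p = 0.004) and Cacna1e likewise (2.09, adjusted p = 0.0274). Cacna1b changed sign without MGT+shScd1 replicate 1.

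**Figure D2:**
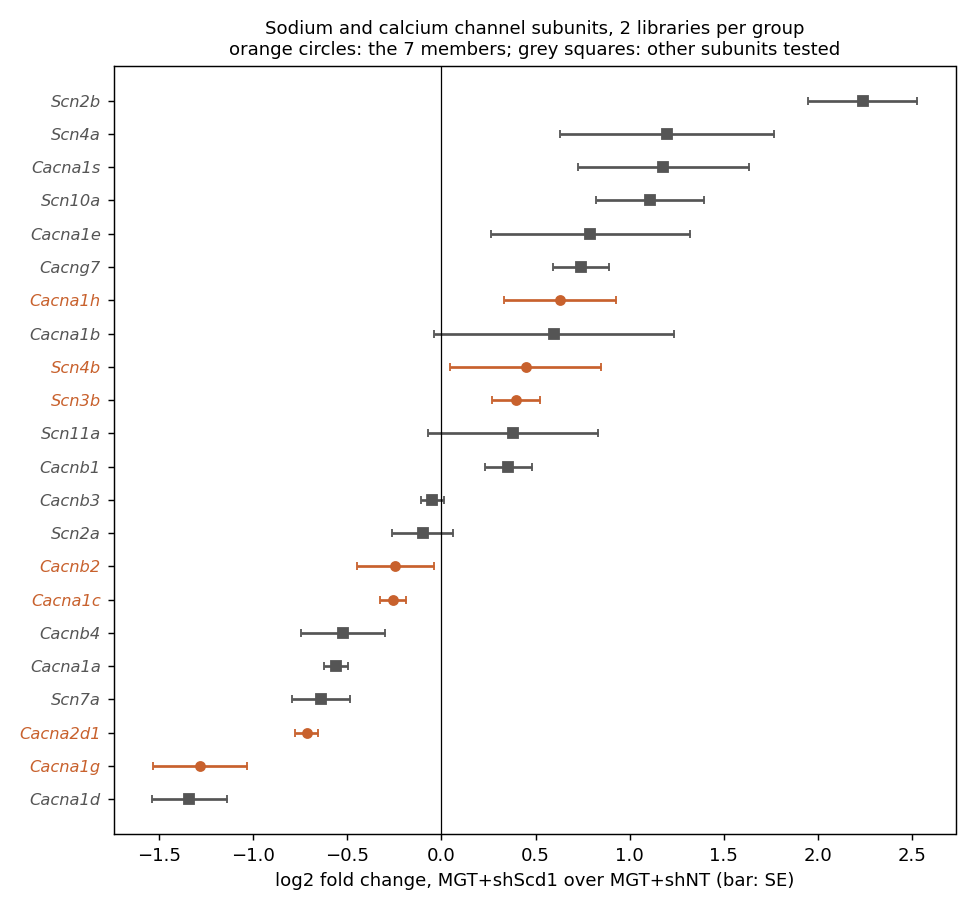
Log2 fold change of MGT+shScd1 over MGT+shNT (x axis) with its SE for the 7 members (orange circles) and the 15 other subunits tested (grey squares), sorted by value. Scn2b (2.24) stands at the upper end, Cacna1d (-1.34) and the member Cacna1g (-1.28) at the lower end.

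Placed within their subunit classes, the calcium channel members held very different shares of the transcripts. By FPKM, Cacna2d1 made up 99.1% to 99.7% of the 4 alpha2delta genes in every library, so its lower level was that of the class, whose sum went from 12.4 and 11.1 to 7.52 and 7.78 FPKM. Cacnb2 held 1.13 ± 0.0967% of the beta subunit transcripts in MGT+shNT and 0.968 ± 0.169% in MGT+shScd1, while Cacnb3 held 90.0 ± 0.658% and 88.7 ± 0.776%. The group means of Cacnb2 differed by less than the SD of its share in knockdown cells. Among 10 alpha1 genes, Cacna1c held 27.0 ± 1.1% in MGT+shNT and 31.1 ± 0.609% in MGT+shScd1, and Cacna1a held 65.1 ± 0.595% and 60.8 ± 0.513%. Cacna1c thus took a larger share of a smaller sum (16.4 and 16.5 against 12.3 and 13.2 FPKM). Cacna1g went from 2.89 ± 0.349% to 1.63 ± 0.118% and Cacna1h from 1.14 ± 0.0418% to 2.41 ± 0.338%.

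For the sodium channel members, the ratio of Scn3b to Scn4b per base of exon was 11.4 and 3.50 in control cells and 5.71 and 5.58 in knockdown cells. The control libraries lay far apart in this ratio, and Scn3b was the more abundant in all 4 libraries. The shares and ratios are descriptions of 2 libraries a group, with no test, and RNA levels do not give channel protein or current.

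**Figure D3:**
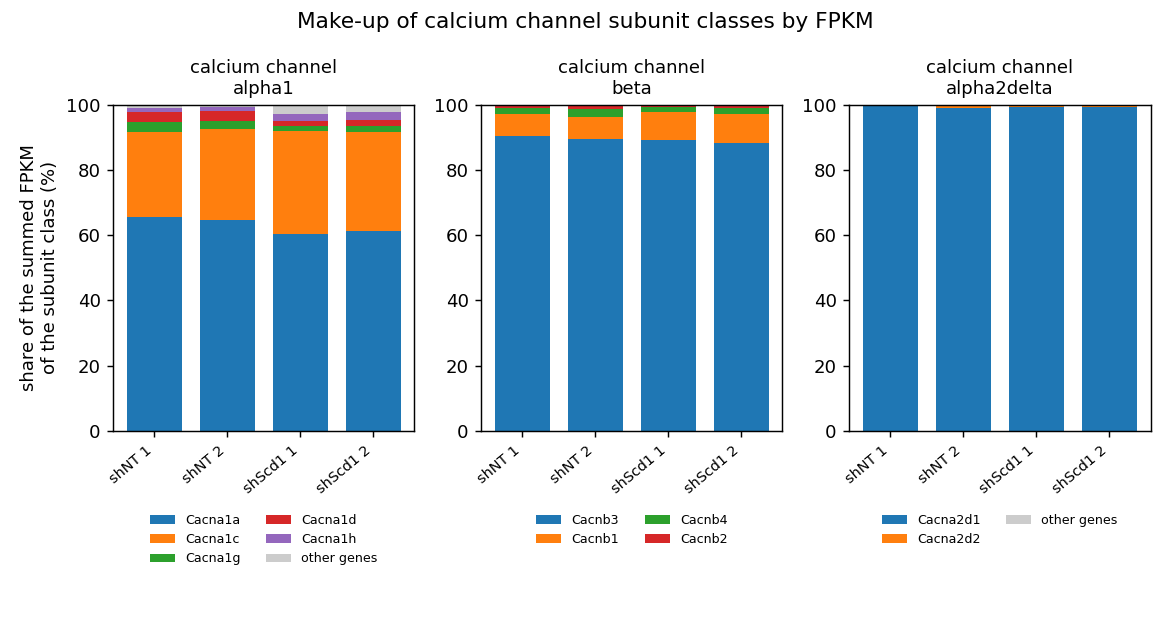
Share of the summed FPKM of each calcium channel subunit class (y axis, percent) taken by its leading genes in each library (x axis), with all remaining genes in grey. Cacna2d1 fills its class in all 4 libraries, and Cacna1a (65.1% and 60.8%) and Cacna1c (27.0% and 31.1%) make up most of the alpha1 class.

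Proteins that bind or regulate these channels were also listed. Of 23, 20 were tested, with 4 that rose, 4 that fell and 12 that were not called, or 40% called beside 29.3% of all genes (median log2 fold change -0.06). Akap5, an anchor that brings protein kinase A to L-type channels, rose 3.58-fold, from 22.2 and 35.5 CPM to 104 and 103 CPM (log2 fold change 1.87, SE 0.14, adjusted p = 6.13e-07). The membrane scaffolds ankyrin-G (Ank3, 1.06, edgeR adjusted p = 9e-06), which anchors sodium channels, and ankyrin-B (Ank2, 0.54, edgeR adjusted p = 0.00245) also rose. On log2(FPKM + 1) the log2 fold change of Ank3 was 0.48 and it was not called (limma adjusted p = 0.07). The Ank2 call was lost on log2(FPKM + 1) (limma adjusted p = 0.234) and without MGT+shScd1 replicate 2 (log2 fold change 0.44). Cbarp, a suppressor of calcium channel activity, rose as well (0.60, adjusted p = 0.000506). Those that fell were Gpd1l, a modulator of sodium channel trafficking (-0.90, adjusted p = 2.84e-05), Fgf14, which binds sodium channel tails (-0.82, adjusted p = 0.000374), Rem1, a small GTPase that inhibits L-type channels (-0.60, adjusted p = 0.00251), and Dlg1, the scaffold SAP97 (-0.23, adjusted p = 0.0148, and not called without either MGT+shScd1 library, adjusted p = 0.204 and 0.0606, or on log2(FPKM + 1), adjusted p = 0.225). The inhibitor Rrad (-0.08, adjusted p = 0.302) did not pass, and it was far more abundant per length than Rem1, at 202 and 192 FPKM against 9.55 and 11.4 FPKM in the MGT+shNT libraries.

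The genes whose levels followed each member most closely over the 4 libraries were found by the Euclidean distance between log2 CPM centred on the mean, among 12738 genes with a symbol and at least 1 FPKM in a group. With 4 libraries, many genes share any such pattern, and the names are a description. The nearest pair was Mcm9 and Lpin2 for Cacna2d1 (distances 0.014 and 0.017), Gripap1 and Vasn for Cacna1c (0.016 and 0.027), Sfrp2 and Psmg1 for Scn3b (0.027 and 0.031), and Hdhd5 and Plagl1 for Cacnb2 (0.029 and 0.039). Fcer1g and C3, which are expressed by macrophages among other cells, lay nearest to Cacna1g (0.073 and 0.082). Fcer1g was lower in both knockdown libraries (6.79 and 6.16 CPM against 2.53 and 2.80 CPM), as was the macrophage marker sum above. Among those markers Csf1r and Fcgr1 overlapped between the groups, and the part of macrophages in the Cacna1g level was not tested. Gm38077 and Cenpv were nearest to Cacna1h (0.06 and 0.061), and Gm48529 and Gm43133 to Scn4b (0.056 and 0.075). Gm48529, like Scn4b, was lowest in MGT+shNT replicate 1, with 11.5 CPM there and 27.5 to 30.2 CPM in the other 3 libraries.

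Left-out libraries and other settings moved the members unequally. The members were chosen by these values, so their calls under any setting are a description and support nothing. Cacna1g (-1.41 to -1.16) and Cacna2d1 (-0.77 to -0.65) kept their sign and size when any 1 library was left out, whereas Cacna1h ranged from 0.42 to 0.81, Cacnb2 from -0.41 to -0.10, Cacna1c from -0.33 to -0.18 and Scn3b from 0.30 to 0.53. The members called were the same 4 without MGT+shNT replicate 1, but Scn4b, Cacna1g and Cacna2d1 without MGT+shNT replicate 2, and Cacna1g and Cacna2d1 without either MGT+shScd1 library. Calls over all genes were fewer there too, at 860 higher and 1357 lower with the first of these libraries left out and 1042 higher and 1607 lower with the second left out. DESeq2 called 3 members, all of the 4 but Scn3b, beside 1365 genes higher and 1913 lower of 15604 over all genes. On the authors' FPKM scale with a pseudocount of 1, Cacna1g, Cacna1h and Cacnb2 were left out by the filter on low values and Cacna2d1 alone of the other 4 was called. With no filter on that scale, limma called 0 of the 7 members, beside 340 genes higher and 251 lower of 31024. At an unadjusted p below 0.05 there were 3 members, beside 4026 genes higher and 2254 lower. With the filter, the calls over all genes were 1688 higher and 1014 lower, against 2122 and 2641 in the count test.

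**Figure D4:**
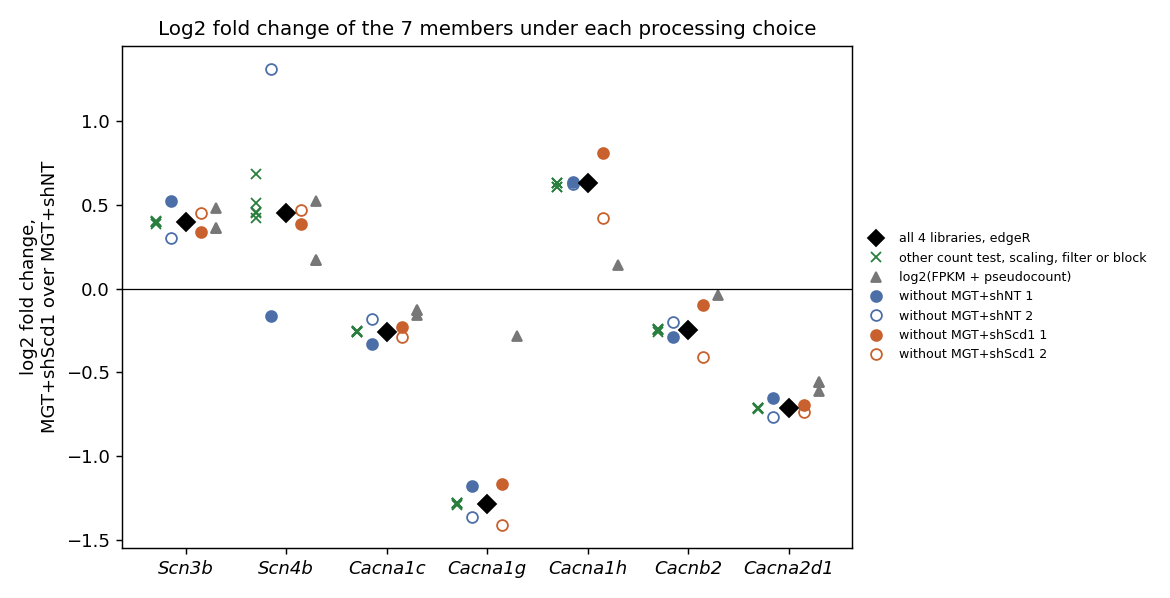
Log2 fold change of MGT+shScd1 over MGT+shNT (y axis) for the 7 members (x axis) with all libraries (black diamonds), under other count tests or settings (green crosses), on log2(FPKM + pseudocount) scales (grey triangles) and with 1 library left out (circles). Scn4b runs from -0.16 to 1.31, while the circles of Cacna1g and Cacna2d1 all lie below 0.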

How the data were processed

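RNA-seq of 4 libraries was analysed from 1 table deposited by the authors, which held raw read counts per gene and library and FPKM values. Per the submitters' processing notes, Trimmomatic 0.36, Subread 1.5.1, featureCounts, SAMtools and the build mm10 were used; which aligner setting, annotation and strand option were used is not stated in the sources. Per the labels' protocols, ribosomal RNA was depleted and libraries were stranded, while the molecule label reads polyA RNA. The FPKM deposited by the authors equalled values rebuilt from count, exonic length and total count for 100% of values (within 0.005). Positions are from GENCODE M21 (GRCm38), start regions from RefSeq.

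Genes kept by filterByExpr (minimum count 10, minimum total count 15) were fitted with edgeR 4.0.16 in R 4.3.3 (TMM, quasi-likelihood, group as the single term, two-sided, Benjamini-Hochberg adjustment over 16234 genes, threshold 0.05). CPM used TMM-adjusted library sizes (factors 0.989, 0.946, 1.03 and 1.03). The verbs rise and fall are kept for called genes that are not members. Within groups, a chi-square test of counts gave 48.2 (MGT+shNT) and 2.96 (MGT+shScd1) per degree of freedom, or 6.19 and 2.75 without the 10 genes contributing most, so no library was a copy of another. The test was run on simulated counts, drawn independently with the dispersions of the same fit. That run cannot show that the test holds for these replicates, which may be technical. Alternatives were DESeq2 1.42.0, limma 3.58.1, other scaling and filters, FPKM scales, a replicate block and each library left out. A few listed genes are not reported here and were left out of the lists, their counts and the sums. The members and lists were chosen with earlier results of these data known. Named genes were the members, Scd1, every other subunit tested, the called regulators and the 2 nearest genes to each member. Rrad, untested subunits and single marker genes were named in addition, after their values were seen. Poisson intervals (95%) cover counting error only.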

Additional observations from a re-analysis of the deposited data

How the results depend on the processing

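Scn3b, Cacna1c, Cacna1g, Cacna1h, Cacnb2 and Cacna2d1 kept their direction in every alternative that gave a value. Scn4b, with as few as 22 counts in a library, went from -0.16 to 1.31 with 1 library left out, and was negative without MGT+shNT replicate 1. Among other subunits that were not called, leaving out 1 library gave -0.31 to 0.081 for Scn2a, -0.17 to 1.59 for Cacna1b and -0.091 to 0.0060 for Cacnb3, so each changed sign. Cacnb3 was also positive on log2(FPKM + 1) with the filter (0.049) and without it (0.049) and on log2(FPKM + 0.1) (0.050). Leaving out 1 library gave 860 to 2386 rises and 1357 to 2945 falls over all genes, 1 to 5 rises and 2 to 4 falls among the other subunits, and 3 to 5 rises and 3 to 5 falls among the regulators. DESeq2 gave 1365 rises over all genes. On log2(FPKM + 1) and log2(FPKM + 0.1) the falls over all genes were 1014 and 1032, the other subunits had 2 rises and 1 fall on each scale, and the regulators had 2 rises on each. The median of all genes was 0.07 and 0.09 there, and the filter left out Cacna1g, Cacna1h and Cacnb2. With no filter on that scale, limma called 340 rises and 251 falls over all genes, 0 rises and 0 falls among the other subunits (5 and 2 at an unadjusted p below 0.05), and 0 rises and 0 falls among the regulators (5 and 3 unadjusted). The cause of these shifts was not tested. The replicate numbers do not pair the libraries by any label, and the deviations of same-numbered libraries had a correlation of 0.00769 over 16234 genes. With the replicate block, 2253 genes rose and 2737 fell, the other subunits had 4 rises and 4 falls, the regulators 4 and 5, and 4 members were called. Cacnb4 passed there (adjusted p = 0.0402), and no call was lost among the members, Scd1, the other subunits and the regulators named. The cell type markers were not followed in that fit.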
